A study of Arabidopsis thaliana with 12 samples.

Results

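The interaction of the nia1nia2 and noa1-2 mutations was measured as the difference between the transcript level seen in nia1nia2noa1-2 and the level that the single mutants would give if their changes simply added up. For each gene it was the mean log2 intensity in nia1nia2noa1-2, minus that in nia1nia2, minus that in noa1-2, plus that in Col-0. An interaction of 0 means that the changes added on the log2 scale, and an interaction of 1 means that nia1nia2noa1-2 lay 2-fold above the sum of the single changes. Genes entered if their mean log2 intensity was at least 6 in at least 1 genotype, the floor given in the study's methods, and 7034 of 13355 genes did. The floor is not a break in the data. AT2G18410, AT3G13674 and AT3G51090 stood just inside it with a highest mean of 6.0, and their interactions were 0.06, 0.09 and -0.57. AT1G65510 and AT5G61570 stood just outside it at 5.997, with interactions of -0.28 and 0.61.

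Whole Arabidopsis thaliana seedlings were used, and each of the 12 arrays was an Affymetrix ATH1 array hybridised with RNA of 1 biological replicate. The 4 genotypes, with 3 arrays each, were nia1nia2noa1-2, which combines all the mutations, nia1nia2, in which each of the nitrate reductase genes NIA1 and NIA2 is mutated, noa1-2, a mutant allele of NITRIC OXIDE ASSOCIATED1, and Col-0, the wild-type background that all the mutants share. Seedlings had grown for 15 days on medium with sucrose with a day of 16 h and a night of 8 h, and were taken 5 h after dawn, at a stage that the labels place after the transition to flowering. No agent was applied, and each mutation was present in every cell, so that the values average over all organs. The probe sets of NIA1, NIA2 and NOA1 carry no gene name in the table used here, so the genotypes were not checked against the mutated genes.

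Nitric oxide (NO) is a short-lived gas that plants use as a signal in germination, stomatal closure, iron supply and defence. Nitrate reductase carries out the first step of nitrate assimilation and can also reduce nitrite to NO, so nia1nia2 seedlings lack a source of NO and a route of nitrogen supply at once. NOA1 was first described as a source of NO and is now known as a GTPase of the plastid that is needed for plastid ribosomes, so noa1-2 seedlings are pale as well as low in NO. When 2 mutations act on 1 pathway, a second lesion may add nothing to the first. This is called masking here. When a change in a single mutant is absent or much smaller in the combined mutant it is called rescue, and a change in the combined mutant beyond either single mutant and beyond their sum is called greater than additive. These words describe levels of RNA and not the growth of the plants.

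The arrays of nia1nia2 differed more among themselves than those of the other genotypes. The median SD of a gene over 3 arrays was 0.115 in nia1nia2noa1-2, 0.257 in nia1nia2, 0.107 in noa1-2 and 0.116 in Col-0 (log2). Replicates of nia1nia2 correlated at 0.976 to 0.987, and those of the other genotypes at no less than 0.9927. Each of the 4 genotypes enters the interaction once, so the wide spread of nia1nia2 is part of the error of every interaction below. Differences between 2 genotypes were tested with 1 spread per gene shared by all 4. Going by the median SDs, that spread is too narrow for nia1nia2 and too wide for the others. Calls that involve nia1nia2 are thus more lenient, and calls between other genotypes stricter. The class counts below rest partly on such calls. Among the organ markers that carry a name and could be tested, PYK10, a root beta-glucosidase, had mean log2 intensities of 12.80 in nia1nia2noa1-2, 12.86 in nia1nia2, 12.76 in noa1-2 and 12.67 in Col-0. RCA, the activase of Rubisco, had 13.68, 13.45 and 13.83 in those mutants and 13.86 in Col-0. Both organ markers lay at a high level in every genotype.

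The interaction was called, at an adjusted p under 0.05 from limma over all 7034 genes, in 244 genes, 3.47% of those tested. It lay above 0 in 173 genes, 2.46% of those tested, and below 0 in 71 genes, 1.01%. That split depended on scaling. When every array was centred on its median, 268 genes were called, of which 139 lay above 0 and 129 below, and when quantile normalisation was applied again, 160 lay above 0 and 133 below. The median interaction over all genes was 0.083, and 0.010 after median centring, so small interactions of either sign lie within a shift shared by all genes. An interaction reached at least 1 in size, a 2-fold departure from the sum, in 107 of the 244 genes, and its median size was 0.95. Among the 244 genes, nia1nia2noa1-2 was called different from Col-0 in 121 (21.9% of all genes tested), nia1nia2 in 219 (43.0% of all) and noa1-2 in 109 (9.08% of all). These differences use the same arrays as the interaction and are a description. The single changes had the same sign in 218 of the 244 genes and opposite signs in 26. The Col-0 arrays enter both single changes and the interaction, so an error in the Col-0 mean favours a shared sign. The share over all genes tested was not counted, so this split is a description only.

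The count also depended on single arrays. With each of the 12 arrays left out in turn, between 75 genes (without nia1nia2noa1-2 replicate 1) and 826 genes (without nia1nia2 replicate 4) were called, and 719 were called without nia1nia2 replicate 3. Leaving out an array of Col-0 gave 149, 116 and 93 calls (replicates 1, 2 and 3), and leaving out an array of noa1-2 gave 132, 96 and 92. Without nia1nia2noa1-2 replicates 2 and 3 there were 188 and 151 calls, and without nia1nia2 replicate 2 there were 327. Of the 244 genes, 70 were called whichever array was left out. These 70 were all called with array weights by genotype and after median centring too, and 132 of the 244 were called in 6 or fewer of the 12 fits. The class counts below cover all 244 genes, and for a gene outside the 70 the number of fits that called it is given. When each genotype was given its own variance, with no sharing between genotypes, 2 genes were called, CYP78A9 and AT5G62580.

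**Figure D1:**
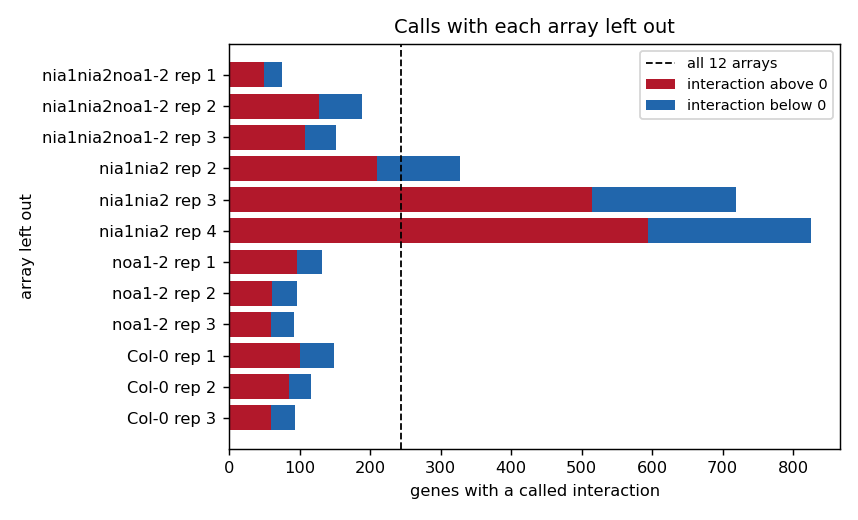
Number of genes with a called interaction (adjusted p under 0.05, limma) when the array named on the vertical axis was left out, split into interactions above and below 0. The dashed line marks the 244 genes called with all 12 arrays. Bars lie above it for the 3 nia1nia2 arrays and below it for the 9 others.

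By the rules used, 137 of the 244 genes (56.1%) were rescued, 51 (20.9%) were masked, 6 were greater than additive and 50 (20.5%) fitted none of these patterns. The share of rescues moved with the size limit of 0.5 described next. It was 34% (83 genes) with a limit of 0.33 and 67.6% (165 genes) with 0.67, 46.1% of 193 genes with array weights and 49.3% of 75 genes without nia1nia2noa1-2 replicate 1. A change in a single mutant counted as rescued when it was called, when nia1nia2noa1-2 differed from that mutant in the opposite direction, and when the change left in nia1nia2noa1-2 was at most 0.5 times its size. A gene counted as masked when nia1nia2, noa1-2 and nia1nia2noa1-2 all differed from Col-0 while nia1nia2noa1-2 was not called different from one of the single mutants and lay close to it. Each gene got 1 class, and rescue and greater than additive came before masking. A gene that met the rules for both rescue and masking, such as AT1G65500, was therefore counted as rescued. A missing call does not show that 2 levels are equal. The same nia1nia2 arrays enter the change in nia1nia2, the difference between nia1nia2noa1-2 and nia1nia2, and the interaction, so an error in the nia1nia2 mean moves all of these together. The Col-0 arrays likewise enter the changes of all the mutants and the interaction, so an error in the Col-0 mean favours masking both ways. Without Col-0 replicates 1, 2 and 3, masked genes numbered 29 (19.5% of those called), 28 (24.1%) and 23 (24.7%). How much such errors add to the rescue and masking counts was not tested.

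**Figure D2:**
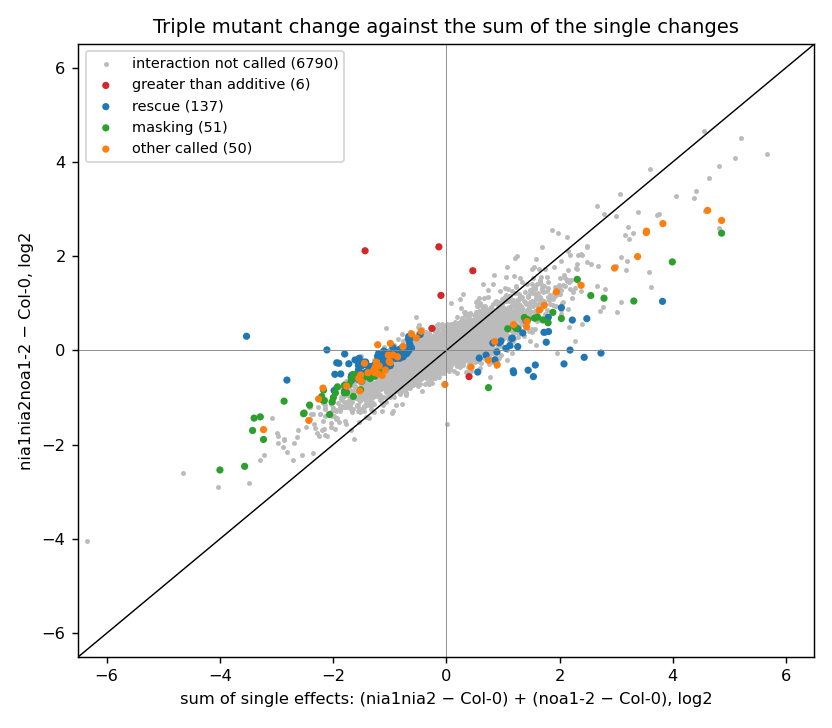
Difference of nia1nia2noa1-2 from Col-0 (vertical axis, log2) against the sum of the differences of nia1nia2 and noa1-2 from Col-0 (horizontal axis, log2), for 7034 genes. The diagonal marks additive changes, and the vertical distance from it is the interaction. The Col-0 arrays enter both axes. Colours mark the 137 rescued, 51 masked and 6 greater-than-additive genes, and QQS lies at -1.44 on the horizontal and 2.11 on the vertical axis.

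Greater-than-additive changes were few, and the largest was in QQS. This short gene, QUA-QUINE STARCH, has no relatives outside Arabidopsis and is known to affect the starch content of leaves. Its log2 intensities were 8.07, 8.23 and 8.51 in nia1nia2noa1-2, 4.30, 5.45 and 4.41 in nia1nia2, 6.37, 6.02 and 6.08 in noa1-2 and 6.34, 6.09 and 6.04 in Col-0. All 3 nia1nia2noa1-2 arrays stood above the other 9, and all 3 nia1nia2 arrays stood below the other 9. QQS was therefore higher in nia1nia2noa1-2 than in Col-0 by 2.11 (adjusted p = 9.12e-05) although it was lower in nia1nia2 by 1.44 (adjusted p = 0.00052) and differed by 0.00 in noa1-2 (adjusted p = 1.0). The sum of the single changes would have put nia1nia2noa1-2 at 4.72. The interaction of 3.55 (standard error 0.35, adjusted p = 0.000409) was called whichever array was left out and ranged from 3.34 to 3.92. The nia1nia2 arrays and the level given by the sum lay under the floor of 6, so the size of the interaction is not exact.

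AT1G65870, which the supplementary annotation of the study describes as a dirigent-like protein of disease resistance responses, had log2 intensities of 7.57, 7.28 and 7.74 in nia1nia2noa1-2, 6.42, 6.07 and 6.35 in nia1nia2, 5.69, 5.90 and 6.01 in noa1-2 and 6.08, 5.63 and 5.81 in Col-0. The nia1nia2noa1-2 arrays again stood above all others. Its interaction was 1.22 (standard error 0.22, adjusted p = 0.0123), and it was called whichever array was left out. AT3G47800 went the other way. It had 7.45, 7.64 and 7.81 in nia1nia2noa1-2, 7.92, 8.20 and 8.01 in nia1nia2, 8.81, 8.69 and 8.71 in noa1-2 and 8.16, 8.18 and 8.23 in Col-0. The gene rose in noa1-2 by 0.55 and fell in nia1nia2noa1-2 by 0.56, with an interaction of -0.96 (standard error 0.17, adjusted p = 0.0109) that no left-out array removed.

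The other greater-than-additive genes, M17, AT4G10270 and AT5G09760, were each called in 4 of the 12 fits with an array left out. M17, which encodes a late embryogenesis abundant protein, a class that accumulates in drying seeds, had 5.93, 5.05 and 7.34 in nia1nia2noa1-2, 3.72, 4.0 and 4.03 in nia1nia2, 3.79, 3.96 and 3.56 in noa1-2 and 4.14, 4.07 and 3.52 in Col-0. Only nia1nia2noa1-2 lay near or above the floor, its arrays spanned more than 2 log2 units, and the interaction of 2.33 (adjusted p = 0.0398) was 1.71 without replicate 3 and 2.86 without replicate 2. M17 thus entered the test through the genotype in which it was high, which favours an interaction above 0. The wound-responsive family gene AT4G10270, a member of the list of hypoxia-response genes, had 7.06, 7.0 and 6.54 in nia1nia2noa1-2, 5.54, 6.06 and 5.34 in nia1nia2, 5.50, 6.09 and 5.38 in noa1-2 and 5.78, 5.67 and 5.65 in Col-0. It rose only in nia1nia2noa1-2 against Col-0, by 1.17, and its interaction was 1.26 (adjusted p = 0.0361), but 1.19 with an adjusted p of 0.0513 after median centring. The mean of AT4G10270 reached the floor in nia1nia2noa1-2 alone, so it entered the test through the genotype in which it was high. AT5G09760 had an interaction of 0.72 (adjusted p = 0.0303), and 0.65 with an adjusted p of 0.0534 after median centring. The number of such genes was 2 without Col-0 replicate 2 or nia1nia2noa1-2 replicate 1, 3 without any of the other Col-0 and noa1-2 arrays or nia1nia2noa1-2 replicate 2, and 23 without nia1nia2 replicate 4.

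**Figure D3:**
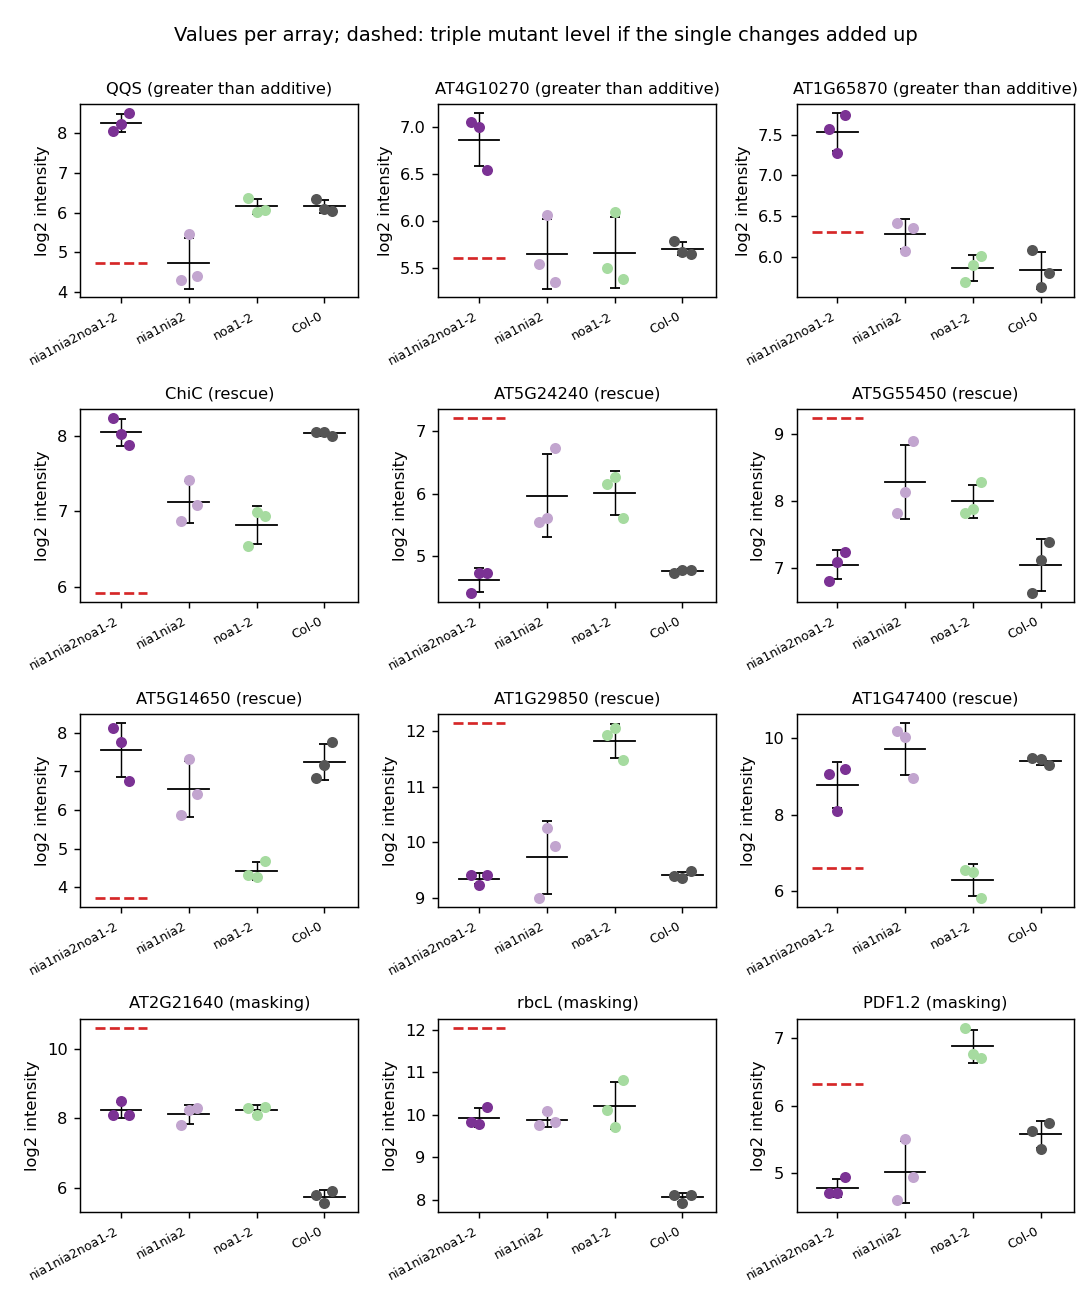
Log2 intensity on each array (points) with the mean and SD of 3 arrays (black) for 12 genes in nia1nia2noa1-2, nia1nia2, noa1-2 and Col-0, each panel with its own vertical range. The dashed red line is the nia1nia2noa1-2 level that the sum of the single changes would give. QQS, AT4G10270 and AT1G65870 lie above it in nia1nia2noa1-2 with all other genotypes lower, ChiC and AT5G14650 overlap with Col-0, and AT2G21640 and rbcL overlap with both single mutants.

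In 8 genes a change found in both single mutants was rescued, so that nia1nia2noa1-2 was not called different from Col-0. ChiC, a class V chitinase of the kind that cleaves chitin in fungal walls, had 8.23, 8.02 and 7.87 in nia1nia2noa1-2, 6.87, 7.42 and 7.09 in nia1nia2, 6.54, 6.99 and 6.94 in noa1-2 and 8.05, 8.05 and 7.99 in Col-0. The arrays of the single mutants all lay below those of nia1nia2noa1-2 and Col-0. ChiC fell by 0.90 in nia1nia2 (adjusted p = 0.000652) and by 1.21 in noa1-2 (adjusted p = 0.00064), and stood 0.01 above Col-0 in nia1nia2noa1-2 (standard error 0.16), where the sum would have been a fall to 5.92. Its interaction was 2.12 (standard error 0.23, adjusted p = 0.000744).

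AT5G24240 and AT5G55450 showed the same pattern with the opposite sign. AT5G24240 had 4.41, 4.73 and 4.74 in nia1nia2noa1-2, 5.55, 5.62 and 6.73 in nia1nia2, 6.16, 6.27 and 5.61 in noa1-2 and 4.74, 4.79 and 4.79 in Col-0. All arrays of nia1nia2noa1-2 and Col-0 lay under the floor, as did the mean of nia1nia2. The gene thus entered the test through noa1-2, where it was high, which by itself favours an interaction below 0. AT5G24240 rose by 1.19 in nia1nia2 and by 1.24 in noa1-2, and the interaction was -2.58 (standard error 0.37, adjusted p = 0.00706). AT5G55450 had 6.82, 7.10 and 7.25 in nia1nia2noa1-2, 7.83, 8.13 and 8.89 in nia1nia2, 7.83, 7.89 and 8.28 in noa1-2 and 6.63, 7.13 and 7.39 in Col-0. Every array of a single mutant stood above every array of nia1nia2noa1-2 and Col-0, and the interaction was -2.18 (standard error 0.36, adjusted p = 0.0092).

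AT3G46490, AT5G48900, CYP78A9 and AT4G16490 fell in both single mutants and were rescued, with interactions of 1.72, 1.25, 1.01 and 0.85. CYP78A9 is a cytochrome P450 known for its effect on fruit and seed growth. Its log2 intensities of 6.37, 6.5 and 6.55 in nia1nia2noa1-2 overlapped with 6.5, 6.32 and 6.41 in Col-0 and lay above 6.17, 5.97 and 6.06 in nia1nia2 and 5.82, 5.88 and 5.72 in noa1-2. These genes and ChiC, AT5G24240 and AT5G55450 were called whichever array was left out. The remaining gene, AT4G15680, on a list of CC-type glutaredoxins chosen after values were seen, fell by 0.67 in nia1nia2 and rose by 1.72 in noa1-2 while nia1nia2noa1-2 differed from Col-0 by 0.04. Its interaction of -1.01 (adjusted p = 0.0375) was called in 3 of the 12 fits with an array left out, and the gene has close paralogs beside it whose RNA may bind the same probes.

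The noa1-2 effect alone was rescued in 23 genes, of which 17 were lower in noa1-2 than in Col-0 and 6 higher, where 4.08% of all genes tested were called lower and 5.00% higher. The share of all genes called higher in nia1nia2noa1-2 than in noa1-2 was 9.40%, and the share called lower 9.17%. In 21 of the 23 nia1nia2noa1-2 was not called different from Col-0. The largest was AT5G14650, with 8.12, 7.76 and 6.76 in nia1nia2noa1-2, 5.88, 7.33 and 6.42 in nia1nia2, 4.32, 4.26 and 4.68 in noa1-2 and 6.83, 7.16 and 7.75 in Col-0. Its noa1-2 arrays lay below all 9 others and under the floor. AT5G14650 fell by 2.83 in noa1-2 (adjusted p = 0.00064), whereas in the nia1nia2 background noa1-2 changed it by 1.00 (adjusted p = 0.0861). The interaction of 3.83 (standard error 0.53, adjusted p = 0.00574) was the highest of all genes tested, and left-out arrays moved it between 3.5 and 4.22.

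AT1G29850 was the mirror image. It had 9.41, 9.24 and 9.41 in nia1nia2noa1-2, 9.0, 10.26 and 9.94 in nia1nia2, 11.93, 12.05 and 11.47 in noa1-2 and 9.39, 9.36 and 9.48 in Col-0. It rose in noa1-2 by 2.41 (adjusted p = 0.000168), and nia1nia2noa1-2 differed from Col-0 by -0.06, with an interaction of -2.79 (standard error 0.35, adjusted p = 0.00408), the lowest of all. OSM34, an osmotin of the pathogenesis-related thaumatin-like proteins, had 9.84, 9.72 and 9.56 in nia1nia2noa1-2, 9.92, 9.77 and 9.96 in nia1nia2, 9.11, 8.90 and 8.72 in noa1-2 and 10.16, 10.34 and 10.20 in Col-0. The rescue of OSM34 was partial, since nia1nia2noa1-2 remained below Col-0 by 0.53 (adjusted p = 0.00975) while noa1-2 lay below it by 1.32. Its interaction was 1.15 (standard error 0.18, adjusted p = 0.00898). AT2G19970 (interaction 1.67), GH9B8, an endoglucanase of glycosyl hydrolase family 9 (1.37), AT2G35820 (-1.18) and the plastid gene rpl14 (-1.58) were also called whichever array was left out. OSM34, and some genes named below, lie outside the rule for named genes and were chosen after their values were seen.

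Other rescues of noa1-2 had less stable calls. AT1G47400, a member of the list of iron deficiency genes, had 9.06, 8.10 and 9.20 in nia1nia2noa1-2, 10.20, 10.03 and 8.95 in nia1nia2, 6.55, 6.51 and 5.81 in noa1-2 and 9.49, 9.46 and 9.30 in Col-0. The noa1-2 arrays stood below all others, and the fall of 3.13 in noa1-2 (adjusted p = 0.000176) was the largest change of this gene. The interaction was 2.19 (standard error 0.47, adjusted p = 0.0239), and it was called in 6 of 12 fits with an array left out, those without a nia1nia2 array, nia1nia2noa1-2 replicate 2 or noa1-2 replicates 1 or 2. PDF1.4, a plant defensin, had 5.64, 5.74 and 5.80 in nia1nia2noa1-2, 5.78, 5.83 and 5.77 in nia1nia2, 7.57, 6.97 and 6.86 in noa1-2 and 6.21, 6.02 and 6.33 in Col-0. Its level was raised in noa1-2 alone, by 0.95, and its interaction of -1.01 (adjusted p = 0.0286) was called in 5 of those 12 fits.

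The nia1nia2 effect alone was rescued in 106 genes, the largest class. In 81 of them the level in nia1nia2 was lower than in Col-0, and in 25 it was higher, where 26.6% of all genes tested were called lower in nia1nia2 and 16.4% higher. These splits may depend on scaling. The median log2 intensity was 6.25, 6.31 and 6.36 on the nia1nia2 arrays and 6.4, 6.38 and 6.43 on the Col-0 arrays. After median centring the class numbered 101 genes, and its split by direction was not counted. The share of all genes called higher in nia1nia2noa1-2 than in nia1nia2 was 9.97%, and the share called lower 5.19%. For 73 of the 106, nia1nia2noa1-2 was not called different from Col-0, for 96 noa1-2 was not, and for 69 neither was. In the other 33 genes nia1nia2noa1-2 was itself called different from Col-0, so that the rescue was partial. The class held 26 of the genes called whichever array was left out. Its median interaction size was 0.90, against 1.13 for the 23 genes rescued from noa1-2. In the fits with an array left out the class numbered from 25 (without nia1nia2noa1-2 replicate 1) to 422 (without nia1nia2 replicate 4), and it numbered 55 with array weights by genotype.

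Among the rescued genes that nia1nia2 had raised, AT1G64560, annotated in RefSeq as a transcribed pseudogene, had 4.79, 4.57 and 4.68 in nia1nia2noa1-2, 7.23, 7.08 and 6.42 in nia1nia2, 5.19, 4.69 and 5.42 in noa1-2 and 5.19, 5.64 and 4.88 in Col-0. Only its nia1nia2 arrays lay above the floor, and the interaction was -2.09 (standard error 0.34, adjusted p = 0.0092). AT1G64560 thus entered the test through the genotype in which it was high, which by itself favours an interaction below 0. AT5G27760, described in the study's annotation as a hypoxia-responsive family protein, had 10.55, 10.63 and 10.55 in nia1nia2noa1-2, 11.51, 11.33 and 11.74 in nia1nia2, 9.76, 9.72 and 10.05 in noa1-2 and 9.76, 9.67 and 9.58 in Col-0. The groups did not overlap except for noa1-2 and Col-0. AT5G27760 rose by 0.91 in nia1nia2noa1-2 and by 1.86 in nia1nia2, which left an interaction of -1.12 (standard error 0.18, adjusted p = 0.0092). DELTA-OAT, the ornithine aminotransferase of proline and arginine metabolism, rose in nia1nia2 by 1.16 and differed by 0.26 in nia1nia2noa1-2 (adjusted p = 0.165). Its interaction of -0.90 was called in 9 of the 12 fits.

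AT1G65500, a gene of unknown function, had the second lowest interaction of all. It had 8.65, 8.71 and 8.04 in nia1nia2noa1-2, 9.62, 10.08 and 10.84 in nia1nia2, 8.07, 8.84 and 8.56 in noa1-2 and 7.49, 6.96 and 7.83 in Col-0. It rose by 2.75 in nia1nia2 and by 1.06 in noa1-2, yet by 1.04 in nia1nia2noa1-2, so its level in nia1nia2noa1-2 was closer to noa1-2 than to Col-0. The interaction was -2.78 (standard error 0.44, adjusted p = 0.0092). CML41, a calmodulin-like protein, and PRN, a pirin, rose by 2.43 and 2.19 in nia1nia2 and were not called against Col-0 in nia1nia2noa1-2. Each of these 2 interactions, -1.81 and -1.34, was called in 3 of the 12 fits with an array left out.

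Among the 81 genes that nia1nia2 had lowered, DRT100, named for DNA damage repair and toleration, had 9.57, 9.43 and 9.51 in nia1nia2noa1-2, 8.59, 9.24 and 8.69 in nia1nia2, 9.17, 9.29 and 9.17 in noa1-2 and 10.01, 9.87 and 10.15 in Col-0. Its interaction was 1.46 (standard error 0.22, adjusted p = 0.00763). AT5G62580 had 7.42, 7.43 and 7.34 in nia1nia2noa1-2, 6.85, 6.78 and 6.83 in nia1nia2, 7.24, 7.38 and 7.34 in noa1-2 and 7.68, 7.78 and 7.77 in Col-0. The replicates lay within 0.14 of each other in every genotype, and the interaction of 1.00 (standard error 0.14, adjusted p = 0.00574) moved only between 0.96 and 1.03 with an array left out. CPI1, the cyclopropyl isomerase of sterol synthesis, had 8.05, 8.08 and 8.07 in nia1nia2noa1-2, 7.42, 7.57 and 7.40 in nia1nia2, 8.28, 8.37 and 8.44 in noa1-2 and 8.44, 8.64 and 8.52 in Col-0. Its fall of 1.07 in nia1nia2 was reduced to one of 0.47 in nia1nia2noa1-2, and its interaction was 0.77 (standard error 0.15, adjusted p = 0.0131).

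PAM68, FZL and MYC4, chosen after their values were seen, were in the same class. PAM68, which is needed to assemble photosystem II, had 7.84, 7.96 and 8.23 in nia1nia2noa1-2, 7.09, 7.12 and 6.96 in nia1nia2, 9.10, 8.91 and 8.66 in noa1-2 and 8.98, 8.74 and 8.89 in Col-0. The level in nia1nia2noa1-2 lay between nia1nia2 and the other genotypes, with no overlap. PAM68 fell by 0.86 in nia1nia2noa1-2 and by 1.81 in nia1nia2 and differed by 0.02 in noa1-2. The interaction of 0.93 (adjusted p = 0.0225) was called in 7 of the 12 fits. FZL, a dynamin-like protein that shapes thylakoids, fell by 0.46 in nia1nia2noa1-2 and by 1.45 in nia1nia2, with an interaction of 0.95 (adjusted p = 0.0152) that was called in 11 of the 12 fits. MYC4, a bHLH factor of the jasmonate response, fell by 0.61 in nia1nia2 and was not called in nia1nia2noa1-2 against Col-0, and its interaction was 0.89 (adjusted p = 0.0276, called in 5 of the 12 fits).

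Masking was found in 51 genes. In 18 of them nia1nia2noa1-2 met the limits against both single mutants, in 20 it met them against noa1-2 alone, and in 13 against nia1nia2 alone. The single changes had the same sign in all but 1 of the 51, and for the 18 the limits themselves require it. AT2G21640, on the list of mitochondrial stress genes, was the clearest case. It had 8.10, 8.51 and 8.10 in nia1nia2noa1-2, 7.81, 8.23 and 8.31 in nia1nia2, 8.30, 8.09 and 8.34 in noa1-2 and 5.79, 5.56 and 5.90 in Col-0. The arrays of the 3 mutants overlapped, and all stood above Col-0. Adding the single changes would have put nia1nia2noa1-2 at 10.61, and the interaction was -2.37 (standard error 0.23, adjusted p = 0.000409). The differences of nia1nia2noa1-2 from nia1nia2 and noa1-2 were 0.12 and -0.01 (standard error 0.16 for each). The Col-0 level was under the floor, so the size of the common rise is not exact.

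Of the 18 genes masked both ways, 7 were higher and 11 lower in the single mutants than in Col-0. AT4G26010 had 5.75, 5.98 and 5.53 in nia1nia2noa1-2, 5.37, 5.66 and 5.52 in nia1nia2, 5.55, 5.74 and 6.61 in noa1-2 and 7.30, 7.56 and 7.50 in Col-0. All mutant arrays lay below all Col-0 arrays, and most lay under the floor of 6. Levels under the floor cannot show well whether the mutants were alike. Since its mean reached the floor in Col-0 alone, AT4G26010 entered the test through the genotype in which it was high, which favours an interaction above 0. Its interaction was 1.72 (standard error 0.31, adjusted p = 0.0123). AT2G47880, listed among the CC-type glutaredoxins, had 5.78, 5.43 and 5.83 in nia1nia2noa1-2, 6.28, 6.07 and 6.11 in nia1nia2, 5.25, 5.16 and 5.65 in noa1-2 and 7.05, 6.83 and 7.15 in Col-0, with an interaction of 1.18 (standard error 0.22, adjusted p = 0.0126). The means of AT2G47880 in nia1nia2noa1-2 and noa1-2 lay under the floor. Both AT4G26010 and AT2G47880 were called whichever array was left out. BGLU33, a beta-glucosidase, fell in nia1nia2noa1-2 by 0.77, in nia1nia2 by 1.00 and in noa1-2 by 0.92, and its interaction of 1.15 (adjusted p = 0.018) was lost without nia1nia2noa1-2 replicate 1 or noa1-2 replicates 2 or 3.

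In the 20 genes in which noa1-2 masked nia1nia2, nia1nia2 changed the level in Col-0 but not detectably in the noa1-2 background. AT5G05600 had 7.74, 7.74 and 6.95 in nia1nia2noa1-2, 8.89, 8.62 and 7.87 in nia1nia2, 7.53, 7.59 and 8.01 in noa1-2 and 6.39, 6.31 and 6.59 in Col-0. It rose in nia1nia2noa1-2 by 1.05, in nia1nia2 by 2.03 and in noa1-2 by 1.28, and its interaction was -2.26 (standard error 0.36, adjusted p = 0.0092). GH9B13, an endoglucanase, had 7.38, 7.15 and 6.75 in nia1nia2noa1-2, 5.80, 6.88 and 6.38 in nia1nia2, 7.10, 7.32 and 7.51 in noa1-2 and 8.24, 8.54 and 8.81 in Col-0. GH9B13 fell in nia1nia2noa1-2 by 1.44, in nia1nia2 by 2.18 and in noa1-2 by 1.22, and the interaction was 1.96 (standard error 0.35, adjusted p = 0.0109). SPT (SPATULA), a bHLH factor of carpel and seedling development, had 5.93, 6.13 and 5.91 in nia1nia2noa1-2, 6.44, 6.47 and 6.23 in nia1nia2, 5.99, 5.84 and 5.77 in noa1-2 and 5.33, 5.00 and 5.22 in Col-0, with an interaction of -1.07 (standard error 0.18, adjusted p = 0.0092). The mean of SPT reached the floor in nia1nia2 alone, where it was high, which favours an interaction below 0. DI21, a drought-induced gene, had an interaction of -1.39 (standard error 0.26, adjusted p = 0.0131). Of these 20 genes, 12 were called whichever array was left out.

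The converse, masking of noa1-2 by nia1nia2, was found in 13 genes, of which 6 were called whichever array was left out. AT1G67865 had 7.84, 7.63 and 7.67 in nia1nia2noa1-2, 7.48, 8.05 and 7.40 in nia1nia2, 9.13, 8.75 and 8.69 in noa1-2 and 10.52, 10.13 and 10.10 in Col-0. The nia1nia2noa1-2 and nia1nia2 arrays overlapped below those of noa1-2, which lay below Col-0. Its interaction was 1.46 (standard error 0.26, adjusted p = 0.0109). AT1G01240 fell in nia1nia2noa1-2 by 1.89, in nia1nia2 by 1.84 and in noa1-2 by 1.39, and its interaction was 1.34 (standard error 0.21, adjusted p = 0.00898).

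PDF1.2, a defensin used as a marker of jasmonate and ethylene signalling, was the single masked gene whose single changes had opposite signs. It had 4.71, 4.70 and 4.94 in nia1nia2noa1-2, 4.60, 5.51 and 4.94 in nia1nia2, 7.15, 6.76 and 6.71 in noa1-2 and 5.63, 5.35 and 5.74 in Col-0. Only noa1-2 lay above the floor, so PDF1.2 entered the test through the genotype in which it was high. That by itself favours an interaction below 0, and the likeness of nia1nia2noa1-2 and nia1nia2 rests on levels under the floor. PDF1.2 rose by 1.30 in noa1-2 (adjusted p = 0.002) and was lower than Col-0 by 0.79 in nia1nia2noa1-2 (adjusted p = 0.0144) and by 0.56 in nia1nia2 (adjusted p = 0.0405). The interaction was -1.53 (standard error 0.29, adjusted p = 0.0131), called whichever array was left out. Its near-identical paralog PDF1.2b had means of 5.45 in nia1nia2noa1-2, 5.82 in nia1nia2, 8.21 in noa1-2 and 7.01 in Col-0 and an interaction of -1.57 (adjusted p = 0.0544). Their probes may not tell these paralogs apart.

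In 52 of the 244 genes, 21.3%, a mutation had called effects of opposite sign in its 2 backgrounds. This held for both mutations in 7 genes, for noa1-2 alone in 24 and for nia1nia2 alone in 21. The interaction was above 0 in 33 and below 0 in 19. Opposite effects were sought only among the 244 genes, and choosing genes by their interaction itself favours such effects. The share over all genes tested was not counted, so the count of 52 is a description only. QQS is among the 52 genes through nia1nia2, which lowered it by 1.44 in Col-0 but raised it by 2.11 in noa1-2. For ChiC, noa1-2 lowered the level by 1.21 in Col-0 and raised it by 0.91 in nia1nia2 (adjusted p = 0.00418). OSM34 was lowered by nia1nia2 in Col-0, by 0.35 (adjusted p = 0.0381), and raised by it in noa1-2, by 0.80 (adjusted p = 0.000853). AT3G47800 was raised by noa1-2 in Col-0, by 0.55, and lowered by it in nia1nia2, by 0.41 (adjusted p = 0.0347).

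**Figure D4:**
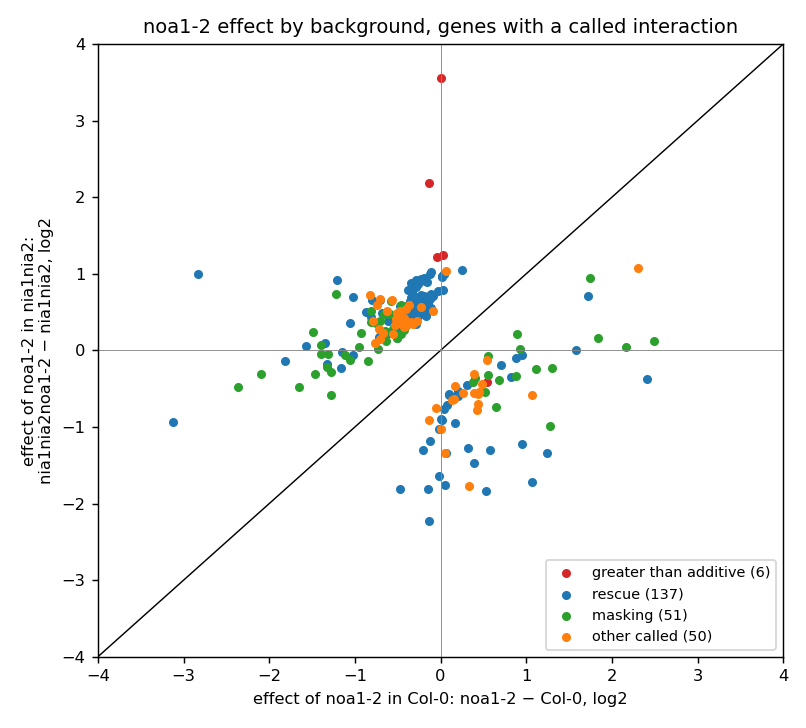
Effect of noa1-2 in the nia1nia2 background (nia1nia2noa1-2 minus nia1nia2, vertical axis, log2) against its effect in the Col-0 background (noa1-2 minus Col-0, horizontal axis, log2) for the 244 genes with a called interaction, coloured by pattern. The diagonal marks equal effects. No called gene lies on it, since all were chosen for their distance from it. QQS is the highest point (3.55), and AT5G14650 lies at -2.83 and 1.00.

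The 50 genes outside these patterns held 49 whose interaction had the opposite sign to the sum of the single changes, without meeting the limits for rescue or masking. In ndhG, AT3G49220 and AT3G09570 the level in nia1nia2noa1-2 lay on the other side of Col-0 from that sum. Several of the 49 had been raised strongly in nia1nia2 and less strongly in nia1nia2noa1-2. TBL37, a member of the trichome birefringence-like family that acetylates wall polysaccharides, had 10.10, 10.28 and 10.11 in nia1nia2noa1-2, 10.85, 10.48 and 11.25 in nia1nia2, 7.75, 7.97 and 8.01 in noa1-2 and 7.69, 7.33 and 7.40 in Col-0. It rose by 2.69 in nia1nia2noa1-2 and by 3.39 in nia1nia2, and the interaction of -1.13 (adjusted p = 0.0243) was called in 6 of the 12 fits. AT3G16330, of unknown function, rose by 2.76 in nia1nia2noa1-2 and 4.53 in nia1nia2, with an interaction of -2.10 (adjusted p = 0.0413, called in 3 of the 12 fits). ALC (ALCATRAZ), a bHLH factor of fruit opening, rose by 1.99 and 3.33 in the same mutants, with an interaction of -1.39 (adjusted p = 0.0425, called only without nia1nia2 replicates 3 or 4). CHLM, the magnesium protoporphyrin methyltransferase of chlorophyll synthesis, fell by 0.53 in nia1nia2noa1-2 and by 1.04 in nia1nia2, with an interaction of 0.60 (adjusted p = 0.0484, called in 3 of the 12 fits) that median centring took to 0.53 (adjusted p = 0.0794).

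AT2G36885, which the study's annotation places in the chloroplast, was an example led by noa1-2. It had 8.60, 8.42 and 8.61 in nia1nia2noa1-2, 7.16, 7.68 and 7.56 in nia1nia2, 9.08, 9.0 and 9.21 in noa1-2 and 6.61, 6.83 and 6.95 in Col-0. The groups did not overlap. AT2G36885 rose in every mutant, by 1.75, 0.67 and 2.30, and its interaction of -1.22 (standard error 0.20, adjusted p = 0.0092) was called whichever array was left out.

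Genes of the plastid genome shared a direction. This genome encodes parts of the photosynthetic complexes and of the plastid's own ribosomes and RNA polymerase, and NOA1 acts in the plastid. All 69 plastid-encoded genes with a name were tested. The interaction was called in 10 of them, each time below 0, where 1.01% of all genes tested were called below 0. It was negative, called or not, in 60 of the 69, against 40.7% of all genes tested, and its median was -0.51, against 0.083 over all genes. After median centring the median was -0.58 and after repeated quantile normalisation -0.40, and with an array left out it lay between -0.62 and -0.41. The median difference from Col-0 of these 69 genes was 0.18 in nia1nia2noa1-2, 0.15 in nia1nia2 and 0.57 in noa1-2. Plastid genes are transcribed in shared units, so the 69 genes are not independent of each other.

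Of the 45 plastid genes of photosynthesis, 6 were called. The rbcL gene for the large subunit of Rubisco was masked both ways, with 9.83, 9.78 and 10.18 in nia1nia2noa1-2, 9.75, 10.08 and 9.82 in nia1nia2, 10.10, 9.72 and 10.82 in noa1-2 and 8.12, 7.92 and 8.12 in Col-0. The mutants overlapped and lay above Col-0, and the interaction was -2.11 (standard error 0.31, adjusted p = 0.00763). The psaC gene, for an iron-sulphur subunit of photosystem I, had 8.84, 8.99 and 9.02 in nia1nia2noa1-2, 8.88, 9.29 and 9.41 in nia1nia2, 9.47, 9.17 and 9.51 in noa1-2 and 8.07, 8.51 and 8.24 in Col-0, and an interaction of -1.35 (adjusted p = 0.0092). For psbN, which is needed to assemble photosystem II, the values were 7.87, 7.79 and 8.42 in nia1nia2noa1-2, 9.23, 9.38 and 9.88 in nia1nia2, 8.69, 8.54 and 9.29 in noa1-2 and 8.59, 8.38 and 8.37 in Col-0. The rise of psbN in nia1nia2, 1.05, was thus rescued, and its interaction was -1.86 (adjusted p = 0.0092). The ATP synthase genes atpI and atpH had interactions of -1.88 and -1.21, and ndhG, of the plastid NDH complex, had -1.20. Of these 6 genes, atpH alone lost its call when an array was left out, in 5 of the 12 fits.

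Of the 22 plastid genes of gene expression, 4 were called. The ribosomal protein gene rps16 had 8.15, 8.09 and 8.25 in nia1nia2noa1-2, 7.28, 8.29 and 8.43 in nia1nia2, 8.88, 8.81 and 9.0 in noa1-2 and 6.98, 7.10 and 7.09 in Col-0. It rose by 1.84 in noa1-2 and by 1.11 in nia1nia2noa1-2, and the interaction was -1.68 (adjusted p = 0.0131). The ribosomal protein gene rpl14 had 10.20, 9.99 and 10.70 in nia1nia2noa1-2, 10.06, 10.68 and 10.13 in nia1nia2, 11.43, 11.10 and 11.19 in noa1-2 and 9.39, 9.90 and 9.67 in Col-0, with an interaction of -1.58 (adjusted p = 0.013). Both kept their calls whichever array was left out. The genes for the ribosomal protein rpl32 (-0.79) and the protease subunit clpP (-0.68) were called in 4 and 5 of the 12 fits. The labels state that reverse transcription was primed with oligo(dT), which starts on poly(A) tails. Plastid messages carry few such tails, so their signals may follow tailing as well as abundance, and that was not tested. The number of plastid genes called was 25 without nia1nia2 replicate 4 and 17 without nia1nia2 replicate 2.

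**Figure D5:**
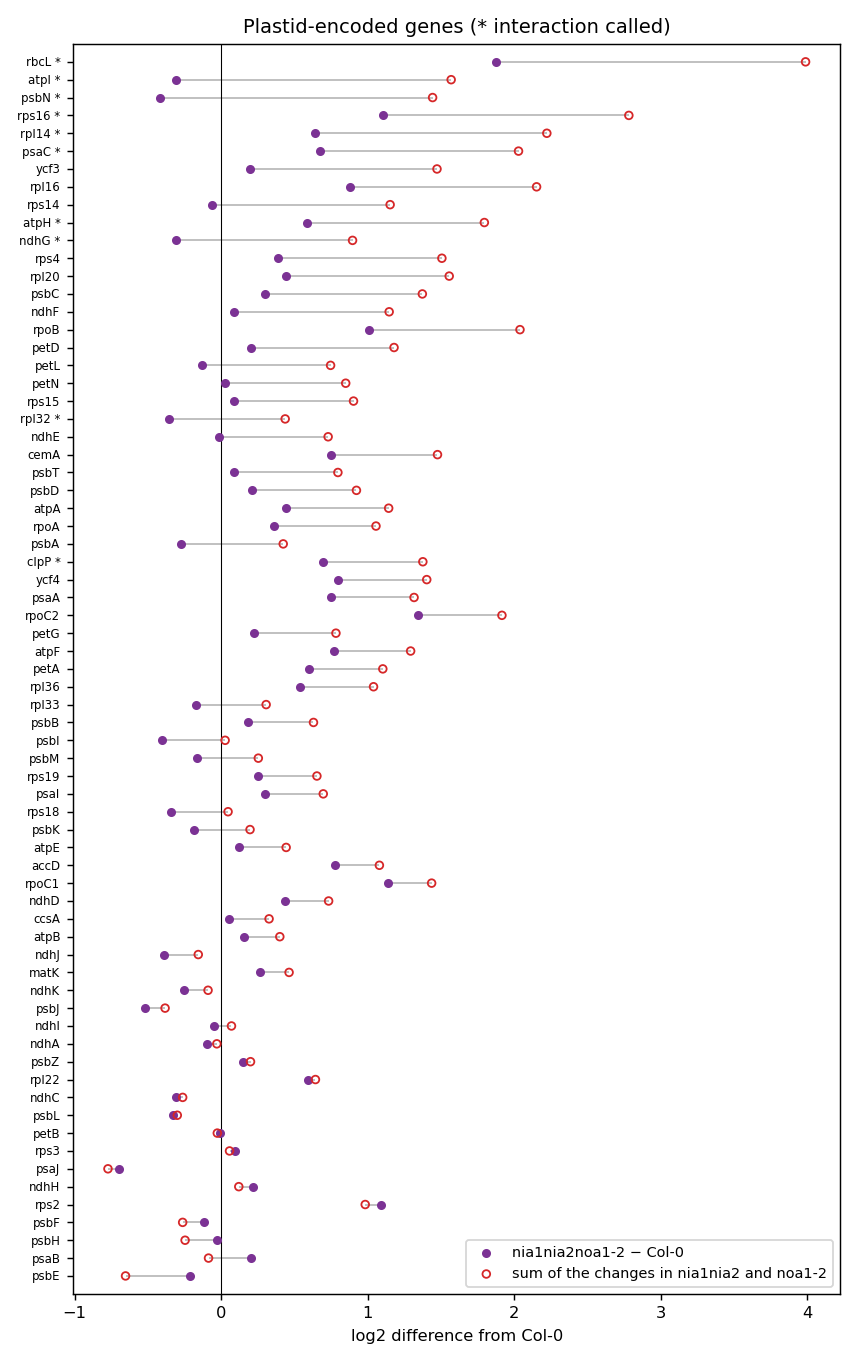
Difference from Col-0 (log2) of the 69 plastid-encoded genes in nia1nia2noa1-2 (filled) and the sum of their differences in nia1nia2 and noa1-2 (open), ordered by interaction, with an asterisk at the 10 genes whose interaction was called. In 60 of 69 genes the filled point lies left of the open point, at less than the sum.

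The mitochondrion-encoded genes with a name, a group chosen after values were seen, numbered 15, of which 6 reached the floor and were tested. All 6 had interactions below 0, as had 40.7% of all genes tested, with a median of -0.59. The share of all genes called below 0 was 1.01%. One of them, nad2, of respiratory complex I, was called, with 4.09, 4.07 and 4.52 in nia1nia2noa1-2, 6.41, 6.19 and 5.51 in nia1nia2, 4.29, 4.29 and 5.07 in noa1-2 and 4.76, 4.51 and 4.83 in Col-0. The nad2 mean was above the floor only in nia1nia2, so nad2 entered the test through the genotype in which it was high. That by itself favours an interaction below 0. Its interaction of -1.66 (adjusted p = 0.022) was called in 8 of the 12 fits, those that kept Col-0 replicates 2 and 3, nia1nia2noa1-2 replicate 1 and noa1-2 replicate 3.

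The lists of nuclear genes gave mostly additive or undecided values. Of 19 hypoxia-response genes tested, 2 were called, both above 0 (AT4G10270, and AT4G17670 with an interaction of 0.90 that was called in 4 of the 12 fits), and the median of the list was 0.06, against 3.47% called, 2.46% above 0 and a median of 0.083 over all genes tested. AT4G10270 had reached the floor in nia1nia2noa1-2 alone, which favours an interaction above 0. Of 5 mitochondrial stress genes, AT2G21640 was called, all 5 were below 0, as were 40.7% of all genes tested, and the median was -0.85. AT2G04050 of that list had means of 8.19 in nia1nia2noa1-2, 8.21 in nia1nia2, 5.48 in noa1-2 and 4.01 in Col-0, with an interaction of -1.49 (adjusted p = 0.0767). Of 4 iron deficiency genes, AT1G47400 was called, all 4 were above 0, where 40.7% of all genes tested were below 0, and the median was 1.28. The iron gene BHLH101, a factor that drives iron uptake, had means of 4.35 in nia1nia2noa1-2, 4.89 in nia1nia2, 4.34 in noa1-2 and 6.95 in Col-0, with an interaction of 2.06 (adjusted p = 0.0544). Each mutant mean of BHLH101 lay under the floor, so it entered the test through Col-0, where it was high. That by itself favours an interaction above 0.

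No member was called among 4 flavonoid genes (median 0.65), 3 genes of nitrate response (-0.03), 3 of aliphatic glucosinolate synthesis (0.36), 5 of abscisic acid, drought and cold (0.05), 8 glutathione transferases (0.15), 14 expansins and xyloglucan transferases (0.41) or 3 WRKY factors (-0.16). The flavonoid list thus had a median above that of all genes and no call. UF3GT of anthocyanin synthesis had means of 9.49 in nia1nia2noa1-2, 9.54 in nia1nia2, 6.72 in noa1-2 and 7.53 in Col-0 and an interaction of 0.76 (adjusted p = 0.323). The shares of all genes tested to read the following counts against are 2.46% called above 0 and 1.01% below 0. Of 28 UDP-glucosyltransferases tested, UGT73C7 was called (-1.40, adjusted p = 0.0391, called in 4 of the 12 fits), and the median of that family was -0.02. Of 2 chlorophyll synthesis genes, CHLM was called, of 2 jasmonate genes, PDF1.2, and of 2 genes of sugar starvation and starch, QQS. GI, the clock gene GIGANTEA, had an interaction of -0.05, and AT5G03350, on the list of salicylic acid and immunity genes, had 0.98 (adjusted p = 0.364). Of 10 cytochromes P450, CYP78A9 was called, and of 10 beta-glucosidases, BGLU33. Of the 5 endoglucanases of family 9, a group chosen after values were seen, GH9B8, GH9B13 and GH9C2 were called, all above 0. GH9C2 had an interaction of 0.85 (adjusted p = 0.0467) that was called only without nia1nia2 replicates 3 or 4.

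The study's methods place the change between noise and signal at a log2 intensity of 6. In 67 of the 244 genes at least 1 genotype had a mean under 6, among them 15 of the 51 masked genes. A gene that reached 6 in only 1 genotype entered through the genotype in which it was high, which favours 1 sign of its interaction. When genes had to reach 6 in all genotypes, 36 genes were masked, 20.8% of 173 called, against 20.9% with the main floor.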

How the data were processed

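RNA of 12 Arabidopsis seedling samples, 3 biological replicates for each of 4 genotypes, was hybridised to ATH1 arrays. The study's methods state that the authors processed the raw scans by robust multiarray averaging (RMA) with a chip definition that regroups probes by gene. The deposited table instead holds a linear intensity for each of 22810 Affymetrix probe sets, and the RMA step is not stated for it. Per the labels limma was used, with no version given. RMA makes arrays comparable but compresses low signals.

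Intensities were converted to log2 and rounded to 2 decimals. GEO's platform annotation gave 1 gene for 13513 probe sets, several genes for 503 and none for 8730, and 64 control probe sets were left out. Of the probe sets with 1 gene, 13436 matched a RefSeq gene. For the 147 genes with several probe sets the probe set with the highest mean was used. The 7034 genes whose mean log2 reached 6 in any genotype were fitted by genotype means in limma 3.58.1 (R 4.3.3, lmFit and eBayes, 8 residual degrees of freedom), with Benjamini-Hochberg adjustment over all of them and a threshold of 0.05. The same fit gave the pairwise differences. Classes used a size limit of 0.5. The number of arrays limits the precision.

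The genes named are the 10 highest and 10 lowest called interactions, up to 6 of each class, up to 4 called members of each gene list, and for a list with no call its largest interaction. Other genes named were chosen after their values were seen, and all members and lists were chosen with earlier results of these data known. Alternatives changed the floor, the scaling, the variance model, the scale, the probe sets, the size limit and the arrays used. The fit was tested on simulated data. Promoter sequences were not used here.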

Additional observations from a re-analysis of the deposited data

Results flagged for a closer look

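The effect of noa1-2 differed between the nia1nia2 and Col-0 backgrounds in 244 genes, by the test of the difference itself, which is the interaction (limma, adjusted p under 0.05). In 52 of these genes at least 1 of the mutations had called effects of opposite sign in its 2 backgrounds. Genes without a called interaction were not searched for such effects, and the choice of genes favours them, so this count is a description. Across all probe sets other than controls, with or without a gene name, 607 of 13270 had a called interaction, and 299 of the 5919 probe sets that the gene table does not list were among them (5.05% of those), so many called probe sets lie outside the named genes described above.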

How the results depend on the processing

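Of the 244 genes with a called interaction, none changed sign under the alternatives fitted to genes, but calls were lost: 71 with array weights by genotype, 35 with median centring, 242 with a separate variance for each genotype and 170 without nia1nia2noa1-2 replicate 1. Of the genes named without a call, GI and AT5G03350 changed sign: GI (-0.05) was 0.047 without Col-0 replicate 1 and 0.082 without nia1nia2 replicate 2 (range -0.158 to 0.082 over the arrays left out), and AT5G03350 (0.98) was -50.19 intensity units on the linear scale. The cause of these changes was not tested.

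With all 12 arrays 244 genes were called. The count was 300 with no floor, 230 with a floor of 7, 173 with a mean of at least 6 in all genotypes, 273 with a trended prior, 193 with array weights (173 shared), 333 on the linear scale (204 shared) and 246 with all probe sets of a gene averaged. It was 2 with separate variances, 155 without moderation, 1519 without moderation at an unadjusted p under 0.05, and 607 over all probe sets, an alternative chosen after seeing the data. With the replicate number as a block it was 626, of which 241 were among the 244. Deviations of same-numbered arrays correlated at -0.112 to 0.282, and not all were over 0.1, so the numbers were not taken to pair the samples. All 3 pairs of nia1nia2noa1-2 and noa1-2 were above 0 (0.109, 0.209 and 0.0874). With 1 array left out the count was 75 to 826.

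With separate variances every class and the plastid genes had 0 calls, except 2 among the other genes. Without moderation the rescue of noa1-2 numbered 10, masking of nia1nia2 by noa1-2 13, the other genes 21 and the plastid genes 5. At an unadjusted p without moderation there were 38 greater-than-additive genes, 577 and 139 rescues of nia1nia2 and noa1-2, 40 from both, 67 maskings of noa1-2, 77 of nia1nia2, 126 both ways, 455 others and 25 plastid genes. With the replicate block these were 15, 311, 67, 15, 20 (masking of noa1-2), 38 (both ways), 130 (others) and 24 (plastid genes). With array weights there were 2 greater-than-additive genes, 55 rescues of nia1nia2 and 4 from both. With a mean of at least 6 in all genotypes there were 2 greater-than-additive genes, 15 rescues of noa1-2, 5 from both and 11 maskings both ways. On the linear scale there were 41 rescues of noa1-2, 20 maskings of noa1-2 and 47 both ways. A size limit of 0.33 gave 60 rescues of nia1nia2, 10 maskings both ways and 98 others, and a limit of 0.67 gave 7 maskings of noa1-2, 2 of nia1nia2 and 28 both ways.

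With 1 array left out there were 2 to 23 greater-than-additive genes, 25 to 422 rescues of nia1nia2, 8 to 77 of noa1-2, 3 to 15 from both, 4 to 31 maskings of noa1-2, 5 to 36 of nia1nia2, 6 to 50 both ways, 11 to 207 others and 7 to 25 plastid genes. The lowest and highest counts of all genes came without nia1nia2noa1-2 replicate 1 and nia1nia2 replicate 4. A search of promoters for motifs was not run.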
